A study of Homo sapiens with 6 samples.

Results

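Solute carriers (SLC) are membrane proteins that move amino acids, sugars, ions, metals, nucleotides and vitamins across the plasma membrane and the membranes of organelles. They are numbered by family. SLC7 holds amino acid exchangers, SLC30 and SLC39 export and import zinc, and SLC25 mostly serves the inner mitochondrial membrane. SLC35 brings nucleotide sugars into the Golgi and the endoplasmic reticulum. Leukaemia cells depend on solute carriers for amino acids, and the cystine importer SLC7A11 supplies the cysteine from which glutathione is made.

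Expressed SLC genes were those whose symbol starts with SLC and a digit, chosen by a mean log2 signal of at least 7 over the 3 DMSO arrays, at the probe set with the highest mean over all 6 arrays. The DMSO signals are also a side of the comparison with CA. Of 376 SLC genes with a probe set of their own, 133 met this rule, and the whole table held 19775 genes. MOLM-14 is an established line of human acute myeloid leukaemia that carries the MLL-AF9 rearrangement. Its cells were given the solvent DMSO for 3 h (3 samples) or 25 nM cortistatin A (CA) for 3 h (3 samples), and each RNA was run on 1 Affymetrix U133 Plus 2.0 array. CA, a steroid-like alkaloid of marine sponges, blocks CDK8 and CDK19, kinases of the Mediator complex, and the comparison asks which transcripts differed after it. All samples come from 1 cell line plated in triplicate wells, and the labels name no separate cultures, so the p-values rest on a spread between wells that may be technical. The number of arrays limits the precision.

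Arrays correlated with each other at 0.996 to 0.998 over all probe sets, and their median log2 signals lay between 5.03 and 5.08. CA replicate 3 stood apart over all genes, at 19.7 on the main principal component against -8.25 to 0.73 for the other arrays. Of 10 leucocyte and myeloid markers measured, 5 had a DMSO mean of at least 7, which were CEBPA, LYZ (12.46), PTPRC (10.59), FLT3 (10.32) and ITGAM (7.49). CSF2RA (6.57), MPO (6.32), CSF1R (5.81), SPI1 (5.49) and CD14 (3.80) lay below it at the probe sets used. The T cell marker CD2 (3.85) and the epithelial marker EPCAM (2.60) were dim too. Not all markers foreign to the myeloid lineage were dim, since KRT18, a keratin gene, was at 9.27. The lymphocyte marker NKG7 (7.63) and the collagen gene COL1A1 (7.08) also had DMSO means above 7. Of the markers measured, CEBPA, a myeloid transcription factor, was the one called, with log2 means of 11.33 in DMSO and 11.81 in CA (adjusted p = 0.0173); its part in the results on transporters was not tested.

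The transporters expressed in these cells were mostly those of organelles and of amino acids and metals. Since the signal in DMSO chose the members, these shares are a description. Of 17 carriers of nucleotide sugars and acetyl-CoA 15 were expressed. So were 29 of 45 genes classed as mitochondrial carriers and 18 of 33 carriers of zinc, iron, copper, magnesium and haem. For amino acids, peptides and neurotransmitters it was 21 of 64. Carriers of organic anions, organic cations, bile acids and urea gave 4 of 33, inorganic ions 8 of 50, sugars 7 of 27 and mono-, di- and tricarboxylates 1 of 7. A further 26 probe sets with an SLC symbol carried several symbols and were left out. SLC16A1 and SLC16A3, of the same family as the carboxylate member SLC16A7, had no probe set of their own, so these shares do not cover them. Expressed SLC25 genes all count as mitochondrial carriers whatever they carry, so the carboxylate and other substrate shares leave them out. The other members were 5 vitamin carriers, 4 fatty acid carriers, 2 nucleoside carriers, 16 with no substrate assigned and 3 genes that are named after a transporter without being one. The brightest probe sets were those of SLC25A3, the mitochondrial phosphate carrier (log2 mean 13.58 in DMSO), SLC25A5, an ADP/ATP carrier (13.33), the glutamine transporters SLC38A2 (12.37) and SLC38A1 (11.53), and SLC39A8, a zinc and manganese importer (11.77). Signals of different probe sets do not order transcripts by abundance. Just above the threshold lay SLC27A1 (7.0), SLC12A7 (7.0) and SLC35C1 (7.01), and just below it SLC68A1 (6.99), SLC22A4 (6.97) and SLC25A22 (6.95).

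SLC7A11 and SLC39A10 were higher after CA, and no expressed SLC gene passed the test in the other direction. SLC7A11, which exchanges extracellular cystine for glutamate, rose 1.45-fold (95% confidence interval 1.32 to 1.6), and SLC39A10, which imports zinc into the cytosol, rose 1.46-fold (1.32 to 1.62). In the limma fit over all genes these were the 2 of 133 members (1.5%) called, at a Benjamini-Hochberg adjusted p under 0.05. RNA came from whole wells, so a higher level per cell and a shift in which cells were present cannot be told apart. Over all genes 0.839% were called higher and 0.0556% lower, 0.895% in either direction, and among the 7718 other genes with a DMSO mean of at least 7 it was 1.75% higher and 0.117% lower. The share of SLC genes called was therefore near that background. At an unadjusted p under 0.05, 18 members were higher and 4 lower, or 13.5% and 3.01%, against 7.09% and 4.5% of all genes and 10.7% and 4.65% of the other genes of that signal. The median log2 change of the members was 0.02, beside 0.0037 for all genes and 0.01 for the other genes of that signal. Most members differed little: 127 of 133 had a log2 change within 0.2 of zero, and for 112 the 95% confidence interval lay within 0.3 of zero. The SE of a change was 0.06 at the median, and replicates spread by an SD of 0.05 (DMSO) and 0.06 (CA).

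**Figure D1:**
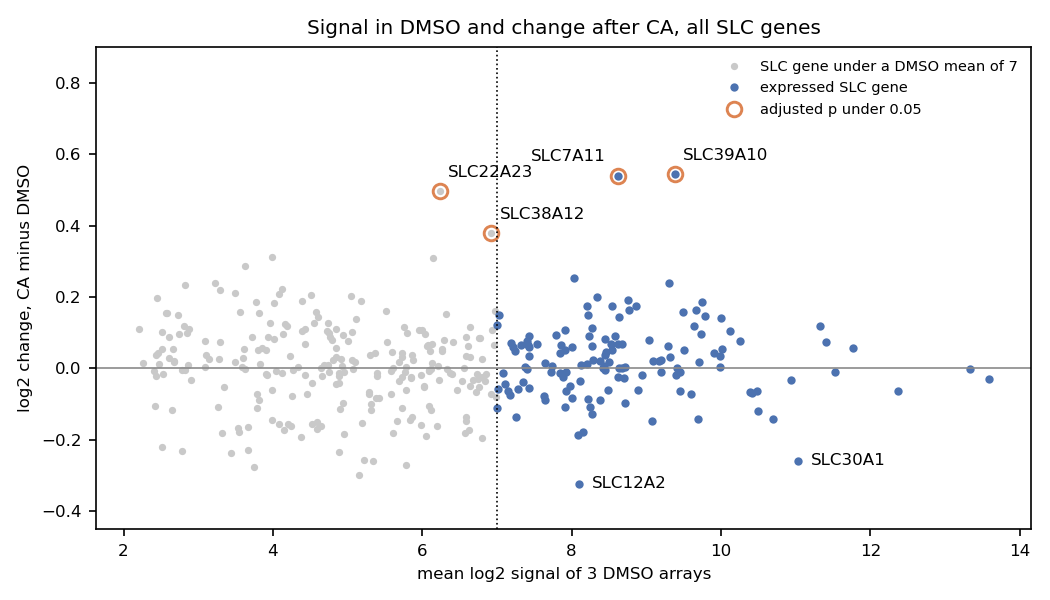
Mean log2 signal of the 3 DMSO arrays (horizontal) against the log2 change, CA minus DMSO (vertical), for all 376 SLC genes; blue points are the 133 expressed genes, grey points the other 243, the dotted line the threshold of 7, and rings mark an adjusted p under 0.05. SLC7A11 and SLC39A10 lie at 0.54 among the expressed genes, and SLC22A23 and SLC38A12 are ringed below the threshold.

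SLC7A11 had log2 signals of 8.61, 8.67 and 8.59 in DMSO and 9.07, 9.24 and 9.16 in CA. The lowest CA array lay above the highest DMSO array, and the spread within each group was small beside the gap (SD 0.04 and 0.08, n = 3 each). The log2 change was 0.54 (0.40 to 0.68, adjusted p = 0.0173). A second bright probe set of the gene went from 8.42, 8.54 and 8.39 to 9.0, 9.19 and 9.10, a log2 change of 0.65 (adjusted p = 0.0340 in the fit over all probe sets). A dim probe set of the gene, at 5.29 in DMSO and 5.47 in CA, gave 0.18 (adjusted p = 0.533). Leaving out any of the 6 arrays ended the call, with adjusted p = 0.121, 0.0876 and 0.112 without DMSO replicates 1, 2 and 3 and 0.0620, 0.0803 and 0.0527 without CA replicates 1, 2 and 3. Over all genes 5, 8 and 1 genes were called without DMSO replicates 1, 2 and 3, in place of 177. Without CA replicates 1, 2 and 3 it was 6, 9 and 112, so losing a call was not particular to SLC7A11. The log2 change of SLC7A11 stayed between 0.50 and 0.58 in these fits.

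SLC39A10 had 1 probe set, with log2 signals of 9.30, 9.45 and 9.38 in DMSO and 9.93, 9.99 and 9.85 in CA. Here too the groups were separate, with an SD of 0.08 in DMSO and 0.07 in CA. The log2 change was 0.54 (0.40 to 0.69, adjusted p = 0.0201). It passed without CA replicate 3 (adjusted p = 0.0358) and did not pass without DMSO replicate 1 (0.121), 2 (0.0873) or 3 (0.120) or without CA replicate 1 (0.117) or 2 (0.0991), while the change stayed between 0.50 and 0.58.

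**Figure D2:**
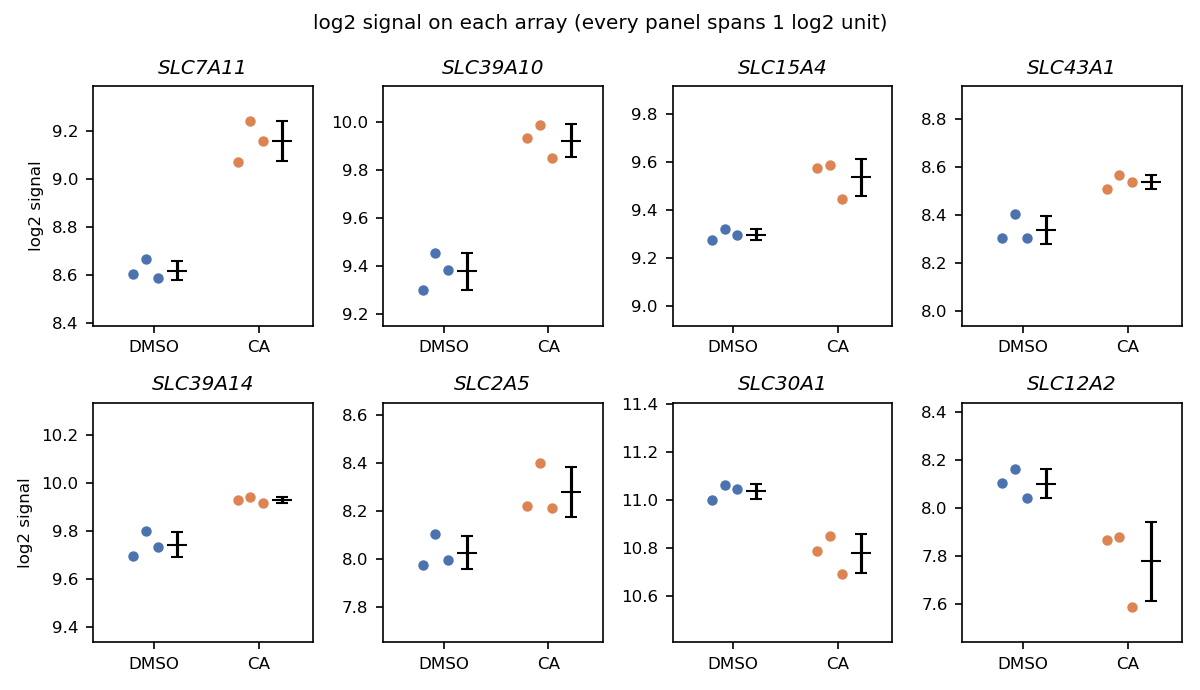
log2 signal on each of the 3 DMSO (blue) and 3 CA (orange) arrays for 8 expressed SLC genes, each panel spanning 1 log2 unit; the black bars are the group mean ± SD, and points within a group are replicates 1 to 3 from left to right. The CA values lie above the DMSO values for SLC7A11, SLC39A10, SLC15A4, SLC43A1, SLC39A14 and SLC2A5 and below them for SLC30A1 and SLC12A2, and the first pair is past the threshold.

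Zinc transport is shared between the SLC39 family, which fills the cytosol with zinc, and the SLC30 family, which empties it. Of 9 expressed SLC39 genes SLC39A10 was the one that passed, and of 5 SLC30 genes 0 passed in limma, while 1, SLC30A1, was lower without adjustment (p under 0.05). SLC39A14, which imports zinc, iron and manganese, went from 9.70, 9.80 and 9.73 to 9.93, 9.94 and 9.92 (1.14-fold, 1.05 to 1.23, adjusted p = 0.194). SLC30A1, which exports zinc across the plasma membrane, had the lowest values of its probe set in CA: 11.00, 11.06 and 11.05 in DMSO and 10.79, 10.85 and 10.69 in CA. That is 0.836 times its DMSO signal (0.762 to 0.917, adjusted p = 0.135). Its second probe set, at 7.55 in DMSO, gave a log2 change of -0.04. SLC39A14 and SLC30A1 passed in the fits with an intensity trend or over brighter genes alone, but with the mean over all probe sets of a gene their log2 changes shrank from 0.19 to 0.077 and from -0.26 to -0.095 (adjusted p = 0.746 and 0.614). The median log2 change was 0.03 over the SLC39 genes and 0.0043 over the SLC30 genes.

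The other metal carriers lay closer to their DMSO values. SLC39A8 differed by a log2 change of 0.06, and SLC39A6, another zinc importer, by -0.03 (adjusted p = 0.675 and 0.829). The magnesium transporter SLC41A1 had all 3 CA values under the DMSO values, with a log2 change of -0.09 (adjusted p = 0.482). For SLC31A1, the copper importer, the log2 change was 0.05, with an interval from -0.08 to 0.18. The class as a whole had a median of 0.04, with 13 of 18 members above zero (72.2%). Among all genes 51.7% were above zero, and among other genes with a DMSO mean of at least 7 it was 56.3%.

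Cells sense zinc through the factor MTF1, which binds metal response elements, and SLC30A1 is a known target. The windows from 250 bases before to 50 bases after the start of SLC30A1 and SLC39A10, the zinc genes with the lowest and the highest change, are shown because they let both be read for the core of that element. Capitals mark TGCACNC or TGCGCNC on either strand (sequences from RefSeq, GRCh38.p14, 5′ to 3′ along the gene).
SLC30A1, chr1:211579112-211579411, minus strand: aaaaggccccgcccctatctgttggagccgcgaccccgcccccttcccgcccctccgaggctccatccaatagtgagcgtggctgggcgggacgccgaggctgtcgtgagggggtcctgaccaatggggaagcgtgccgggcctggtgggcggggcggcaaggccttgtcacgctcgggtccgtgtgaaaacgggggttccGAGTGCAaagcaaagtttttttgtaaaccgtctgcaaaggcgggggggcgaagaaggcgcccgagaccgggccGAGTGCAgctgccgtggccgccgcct
SLC39A10, chr2:195656976-195657275, plus strand: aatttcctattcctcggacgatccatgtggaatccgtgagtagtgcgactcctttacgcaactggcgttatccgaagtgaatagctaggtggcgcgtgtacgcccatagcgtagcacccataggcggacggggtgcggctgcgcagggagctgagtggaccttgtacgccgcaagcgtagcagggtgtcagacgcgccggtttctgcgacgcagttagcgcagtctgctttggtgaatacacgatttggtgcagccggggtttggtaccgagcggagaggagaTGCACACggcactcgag
SLC30A1 held 2 matches, and SLC39A10 held 1 in this window and 0 in the window of its other start. These letters are common: 29.6% of all 35116 promoter windows held a match, as did 6 of 16 windows of expressed SLC30 and SLC39 genes (37.5%). MTF1 itself had log2 means of 7.73 in DMSO and 7.65 in CA (adjusted p = 0.549). SLC39A14 and SLC39A4 had no promoter window to read. A match is a string of letters and not a measured binding site.

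Of 21 expressed transporters of amino acids, peptides and neurotransmitters, 9 had all 3 CA values above the 3 DMSO values (42.9%) and 0 had them below. Over all genes 11.8% lay above and 7.53% below, and among the other genes of at least that signal 21.0% and 11.0%. Before adjustment 5 were higher and 0 lower, SLC7A11 alone passed after adjustment, and whether this class differed from others was not tested. The median log2 change was 0.07, against 0.01 for the other genes of that signal, and it was 0.03 with the mean over all probe sets of a gene. SLC15A4, a lysosomal carrier of histidine and peptides, went from 9.27, 9.32 and 9.30 to 9.57, 9.59 and 9.45, which is 1.18-fold (1.08 to 1.29, adjusted p = 0.155). Its second bright probe set gave a log2 change of 0.33 (adjusted p = 0.103 over all probe sets), and the gene passed with an intensity trend and over brighter genes alone. SLC43A1, which carries large neutral amino acids, had 8.31, 8.41 and 8.31 in DMSO and 8.51, 8.57 and 8.54 in CA (1.15-fold, 1.06 to 1.25, adjusted p = 0.196).

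SLC7A11 works as a heterodimer with SLC3A2, the heavy chain that it shares with the leucine importer SLC7A5. SLC3A2 had 8.61, 8.61 and 8.53 in DMSO and 8.68, 8.68 and 8.66 in CA, a log2 change of 0.09 (-0.02 to 0.20, adjusted p = 0.495). SLC7A5 had 10.23, 10.26 and 10.25 and then 10.31, 10.32 and 10.35, a log2 change of 0.08 (-0.02 to 0.17, adjusted p = 0.538). In both the groups were separate, and the upper end of each interval lay below the lower end for SLC7A11 (0.40). Among others of this class, SLC38A9, the lysosomal arginine sensor upstream of mTORC1, had a log2 change of 0.18 (adjusted p = 0.306). The glutamine carriers SLC38A1 and SLC38A2 had log2 changes of -0.0093 (-0.13 to 0.11) and -0.06 (-0.17 to 0.05), and SLC1A5, another glutamine carrier, had -0.04 (-0.17 to 0.09). The cationic amino acid carrier SLC7A1 had 0.07, which became -0.04 with the mean over its probe sets. SLC6A6, which carries taurine, was uneven within CA, at 9.13, 8.91 and 8.81, against 8.79, 8.76 and 8.71 in DMSO (adjusted p = 0.466).

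Transporters of amino acids are known targets of the amino acid response, in which ATF4 and C/EBP proteins bind a composite element. SLC1A4, which carries serine and alanine, and SLC3A2, the partner of SLC7A11, are shown as members that hold the letters TGATGNAA near their start, marked by capitals on either strand (RefSeq, GRCh38.p14, 5′ to 3′ along the gene).
SLC1A4, chr2:64989149-64989448, plus strand: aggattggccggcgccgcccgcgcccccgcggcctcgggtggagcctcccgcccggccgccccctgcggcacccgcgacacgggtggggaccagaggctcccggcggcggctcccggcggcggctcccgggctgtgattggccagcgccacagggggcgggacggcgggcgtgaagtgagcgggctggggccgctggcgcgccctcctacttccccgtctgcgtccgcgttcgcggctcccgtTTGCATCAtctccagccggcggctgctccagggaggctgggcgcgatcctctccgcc
SLC3A2, chr11:62881449-62881748, plus strand: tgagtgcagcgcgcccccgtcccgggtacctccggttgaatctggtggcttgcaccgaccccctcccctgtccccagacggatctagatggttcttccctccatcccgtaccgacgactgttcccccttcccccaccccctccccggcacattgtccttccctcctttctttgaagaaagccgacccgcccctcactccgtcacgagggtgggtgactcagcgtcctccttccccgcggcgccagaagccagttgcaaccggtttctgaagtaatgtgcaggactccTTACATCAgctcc
The match was in 5 of 28 windows of this class (17.9%), those of SLC1A4, SLC1A5, SLC38A1, SLC3A2 and SLC7A1, and in 3.62% of all windows. SLC1A4 had 2 windows and SLC3A2 had 3, and those not shown held 0 matches. SLC1A4 went from 8.88, 8.89 and 8.80 to 8.94, 9.12 and 9.03, a log2 change of 0.17 (adjusted p = 0.356), and its 2 other bright probe sets gave 0.23 and 0.15. The 5 genes with the letters had log2 changes from -0.04 to 0.17, and none passed in limma. SLC7A11, SLC7A2, SLC6A6 and SLC15A3 had no promoter window, so whether they hold the letters could not be read. ATF4 itself had log2 means of 12.63 in DMSO and 12.62 in CA (adjusted p = 0.957 in limma). Binding at these letters was not tested.

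**Figure D3:**
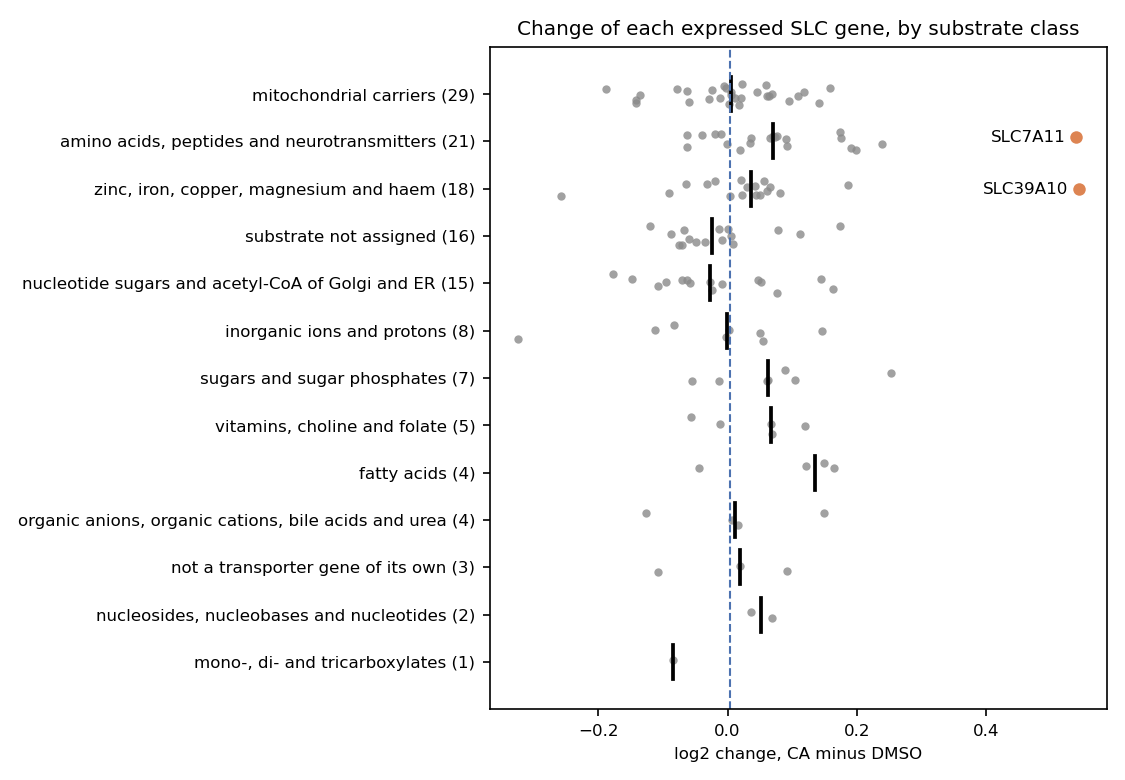
log2 change, CA minus DMSO, of each of the 133 expressed SLC genes (points), by substrate class with the number of genes in brackets; black bars are class medians, the dashed line is the median of all 19775 genes, and orange points have an adjusted p under 0.05. Amino acid carriers have a median of 0.07, mitochondrial carriers of 0.0061 and nucleotide sugar carriers of -0.03.

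Sugar transporters had 0 called members in limma and 1 higher, 0 lower before adjustment. SLC2A5, the fructose carrier, went from 7.98, 8.10 and 8.0 to 8.22, 8.40 and 8.21 (1.19-fold, 1.06 to 1.34, adjusted p = 0.240). Its log2 change of 0.25 at this probe set was 0.038 with the mean over its probe sets and 0.083 without probe sets of shared sequence (adjusted p = 0.870 and 0.750). The glucose carriers SLC2A3 and SLC2A1 had log2 changes of 0.10 (-0.03 to 0.23) and 0.09 (-0.08 to 0.26), with overlapping groups. SLC2A13, which carries myo-inositol with protons, had all CA values below the DMSO values by a small margin, with a log2 change of -0.06 (adjusted p = 0.661). The 7 genes had a median of 0.06.

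Glucose carriers are held in check by the arrestin-like protein TXNIP, which promotes their removal from the membrane, and by its relative ARRDC4. TXNIP fell by 26.0%, from 10.50, 10.51 and 10.50 to 10.02, 10.05 and 10.15 (adjusted p = 0.0221). ARRDC4 rose 1.31-fold, from 7.83, 7.81 and 7.81 to 8.26, 8.21 and 8.13 (adjusted p = 0.0306). Each of the calls held in 1 of the 6 fits without an array, with adjusted p between 0.0310 and 0.136 for TXNIP and between 0.0354 and 0.168 for ARRDC4, which also missed the threshold without probe sets of shared sequence (adjusted p = 0.0511). Of 26 measured partners and regulators of SLC transport these were the ones that passed, 1 higher and 1 lower. Over all genes 0.839% were called higher and 0.0556% lower. The list is short and was chosen with earlier results known, so the count is a description. ATP1B1, a subunit of the sodium pump that sets the gradient many SLC proteins use, had a log2 change of -0.42 (adjusted p = 0.0625). Its DMSO mean of 6.78 lay under the threshold of 7. Another subunit of the pump, ATP1B3, at 11.71 in DMSO, differed by 0.02 (-0.08 to 0.12, adjusted p = 0.893 in limma).

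Mitochondrial carriers, the largest class, had 0 called members among 29 in limma, with 2 higher and 1 lower before adjustment. The class took in every expressed SLC25 gene, also SLC25A17, known before as PMP34, which is a carrier of peroxisomes. Their median log2 change was 0.0061 and the changes ranged from -0.19 to 0.16. SLC25A15, the ornithine carrier, had CA values of 10.15, 10.14 and 10.15 against 9.95, 10.04 and 10.01 in DMSO (1.10-fold, adjusted p = 0.305). SLC25A13, which exchanges aspartate for glutamate, gave 1.12-fold (adjusted p = 0.358). SLC25A33, a carrier of pyrimidine nucleotides, had 9.66, 9.71 and 9.70 in DMSO and 9.51, 9.60 and 9.52 in CA, which is 0.906 times the DMSO signal (adjusted p = 0.325). SLC25A32, linked to folate and FAD import, and SLC25A46, a protein of the outer membrane, differed by 0.12 and -0.14 on the log2 scale (adjusted p = 0.442 and 0.454), and SLC25A46 by -0.043 with the mean over its probe sets. The bright probe sets of SLC25A3 and SLC25A5 had intervals of -0.13 to 0.07 and -0.10 to 0.10. SLC25A5 belongs to a family of close copies, so its probe set may also read related transcripts. The iron carriers SLC25A37 and SLC25A28 differed by 0.01 and 0.11 (adjusted p = 0.976 and 0.476). The lowest change of the class, at SLC25A24, a carrier of ATP-magnesium and phosphate, rested on CA replicate 3: its CA values were 8.06, 8.01 and 7.64 and its DMSO values 8.13, 8.10 and 8.04.

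Golgi and endoplasmic reticulum carriers had a median log2 change of -0.03 and 0 calls in limma (2 higher and 1 lower before adjustment). Above zero were 5 of 15 members (33.3%), against 56.3% of the other genes with a DMSO mean of at least 7. SLC35D1, which carries UDP-glucuronic acid and UDP-N-acetylgalactosamine, had 8.20, 8.10 and 8.15 in DMSO and 7.95, 8.07 and 7.90 in CA (log2 change -0.18, adjusted p = 0.335). SLC35D2, another carrier of nucleotide sugars, had log2 change -0.10 with separate groups (adjusted p = 0.449). SLC35A1, which supplies CMP-sialic acid to the Golgi, had -0.07 (-0.18 to 0.03), also with separate groups. SLC33A1, the acetyl-CoA carrier of the endoplasmic reticulum, and SLC35H1, known before as SLC35C2, had 0.16 and 0.14 (adjusted p = 0.411 and 0.410), or 0.088 and 0.068 with the mean over probe sets. SLC35B3, a carrier of the sulfate donor PAPS, had 10.50, 10.53 and 10.24 in CA against 10.53, 10.47 and 10.46 in DMSO, so that its log2 change of -0.06 became 0.03 without CA replicate 3.

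Inorganic ion carriers held the largest decrease in signal among the members. SLC12A2, the sodium-potassium-chloride cotransporter that lets cells gain volume, had 8.10, 8.16 and 8.04 in DMSO and 7.87, 7.88 and 7.59 in CA. Every CA value lay below the DMSO values, but CA replicate 3 was far lower than the other CA arrays (SD 0.17 in CA, 0.06 in DMSO). The signal in CA was 0.799 times that in DMSO (0.689 to 0.926, adjusted p = 0.240), and the log2 change was -0.32, or -0.23 without CA replicate 3. A dim second probe set gave 0.04, and the mean over both gave -0.14. SLC12A7, which lets potassium and chloride out, had a log2 change of -0.11 (adjusted p = 0.607). SLC20A1, a sodium-dependent phosphate importer, had 9.80, 9.81 and 9.75 and then 9.94, 9.92 and 9.94 (1.11-fold, 1.03 to 1.19, adjusted p = 0.268), and passed with an intensity trend and over brighter genes alone, but its log2 change of 0.15 was 0.081 with the mean over its probe sets. SLC26A2, the sulfate carrier, had 0.06. The 8 members had a median of -0.00024.

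**Figure D4:**
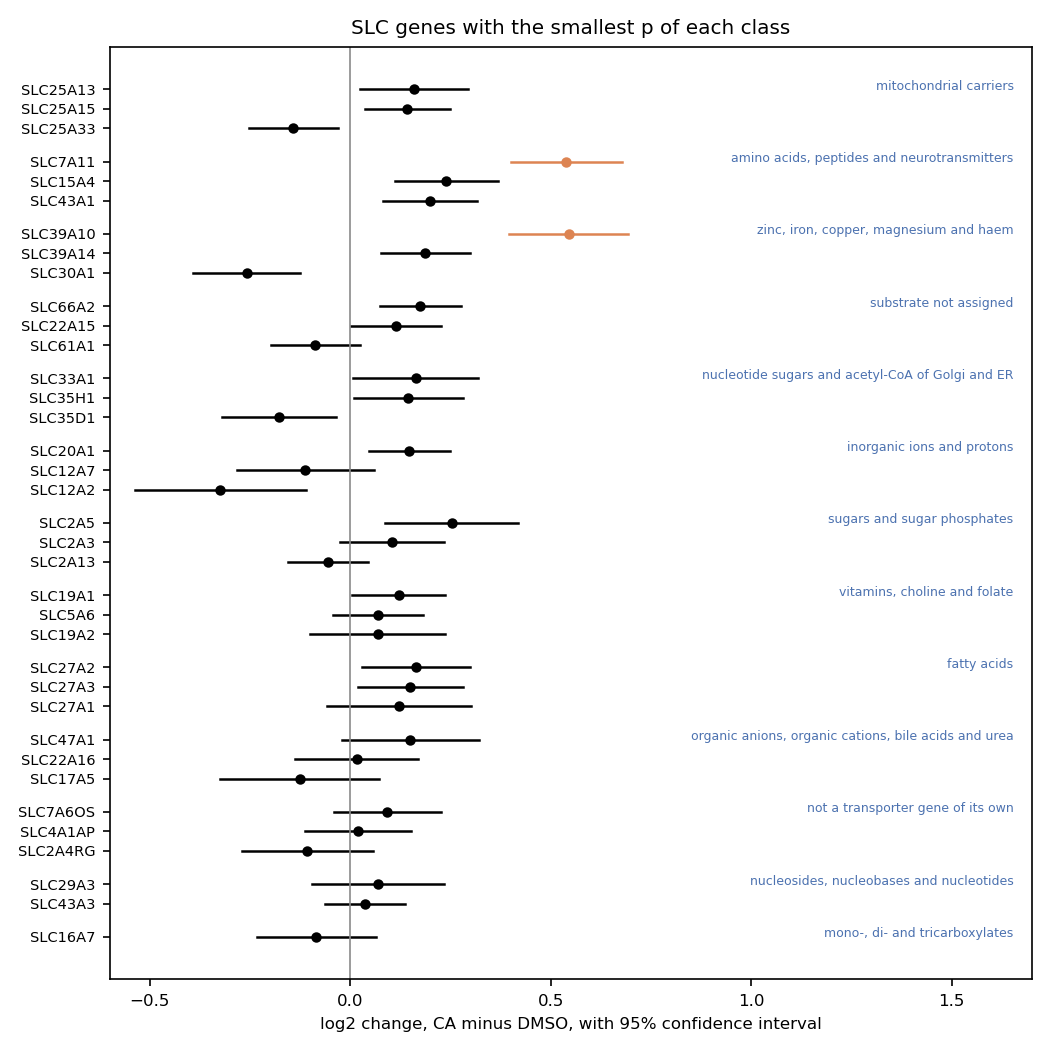
log2 change, CA minus DMSO, with its 95% confidence interval from limma, for the up to 3 genes of each substrate class with the smallest p; classes are in order of size and orange marks an adjusted p under 0.05. The intervals of SLC7A11 (0.40 to 0.68) and SLC39A10 (0.40 to 0.69) lie furthest to the right, and that of SLC12A2 reaches furthest to the left (-0.54).

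Carriers of fatty acids and vitamins had 0 calls in limma, with 2 and 1 members higher and 0 lower before adjustment. SLC27A2, SLC27A3 and SLC27A1, which activate or import fatty acids, differed by 0.16, 0.15 and 0.12 on the log2 scale (adjusted p = 0.344, 0.373 and 0.595); the groups of SLC27A2 and SLC27A3 were separate. SLC19A1, the reduced folate carrier that also brings methotrexate into cells, had 9.67, 9.68 and 9.57 in DMSO and 9.76, 9.75 and 9.76 in CA (1.09-fold, adjusted p = 0.415), but a dimmer probe set of the gene, without a suffix for shared sequence, gave -0.09, and the mean over its probe sets 0.031. The thiamine carrier SLC19A2 and the biotin and pantothenate carrier SLC5A6 had 0.07 each. SLC43A3, a carrier of purine nucleobases, had 0.04, SLC29A3, a nucleoside carrier of lysosomes, 0.07, and SLC16A7, a monocarboxylate carrier, -0.08 (adjusted p = 0.784, 0.750 and 0.652). Of organic ion carriers, SLC47A1, which expels organic cations, had 0.15, SLC17A5, which exports sialic acid from lysosomes, -0.13, and the carnitine carrier SLC22A16 0.02 (adjusted p = 0.487, 0.612 and 0.949). SLC47A1 had 0.080 without DMSO replicate 1, and SLC17A5 had -0.051 without CA replicate 3 and -0.033 with the mean over its probe sets.

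Among the 16 members with no substrate assigned, SLC66A2 had the smallest p, with 8.51, 8.56 and 8.55 in DMSO and 8.72, 8.73 and 8.70 in CA (1.13-fold, 1.05 to 1.21, adjusted p = 0.185). It passed when only genes with a mean of at least 7 were tested, but its log2 change of 0.17 was 0.027 with the mean over its probe sets (adjusted p = 0.918). SLC22A15 and SLC61A1, known before as MFSD5, differed by 0.11 and -0.09 (adjusted p = 0.430 and 0.532). SLC71A2 had the brightest probe set of this class and a log2 change of -0.12, with CA replicate 3 at 10.21 and the other arrays from 10.41 to 10.54; the change was -0.041 without that array and -0.25 with the mean over probe sets. The 3 members that are no transporters, SLC7A6OS, SLC2A4RG and SLC4A1AP, had 0.09, -0.11 and 0.02 (adjusted p = 0.583, 0.608 and 0.926).

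Of the 243 SLC genes below the threshold 2 were called higher (0.823%), a share near the 0.839% of all genes. SLC38A12, known before as TMEM104 and akin to amino acid carriers, lay just under the threshold at 6.97, 6.86 and 6.94 in DMSO and had 7.37, 7.29 and 7.25 in CA (1.30-fold, 1.19 to 1.43, adjusted p = 0.0412). Choosing members on the mean of all 6 arrays or on the CA arrays would have brought it in, for 3 called members. SLC22A23, of unknown substrate, went from 6.17, 6.27 and 6.27 to 6.64, 6.77 and 6.78 (1.41-fold, 1.28 to 1.56, adjusted p = 0.0256). Its other probe sets gave log2 changes of -0.10, 0.14 and -0.01, the sign turned to -0.10 without probe sets that may match several transcripts, and the mean over its probe sets gave 0.13 (adjusted p = 0.557). No fit without an array kept either call, with adjusted p from 0.0684 to 0.180 for SLC38A12 and from 0.0667 to 0.136 for SLC22A23.

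A list of 64 measured genes of carriers, pumps and other ABC proteins without an SLC name gave 1 call. Of these genes ABCE1, ABCF1, ABCF2 and ABCF3 act in translation and carry nothing. Over all genes 0.839% were called higher and 0.0556% lower. FLVCR2, a haem and choline transporter, rose 1.35-fold, from 7.02, 6.99 and 7.15 to 7.52, 7.44 and 7.49 (adjusted p = 0.0338), and no fit without an array kept that call (adjusted p from 0.0910 to 0.188). Its log2 change of 0.43 was 0.28 with the mean over its probe sets and 0.10 without probe sets of shared sequence (adjusted p = 0.140 and 0.598). The cholesterol pump ABCA1, dim at 5.49 in DMSO, had a log2 change of 0.54 (adjusted p = 0.0625), or 0.33 with the mean over its probe sets (adjusted p = 0.0303), and SLCO4A1, an organic anion carrier, had 0.29 (adjusted p = 0.105). Before adjustment 5 of the 64 were higher and 1 lower (7.81% and 1.56%), against 7.09% and 4.5% of all genes, so the share higher was near that background.

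Where a member had more than 1 probe set of good signal, the changes mostly had the same sign. Of the 133 members 89 had several probe sets. Another set with a DMSO mean of at least 7 existed for 43 genes, 58 sets in all, and 43 of the 58 had the sign of the set used. The monocarboxylate carrier SLC16A7 had -0.08 at the set used and -0.28 at its other set of this signal, where the CA values were 7.60, 7.69 and 7.33 against 7.86, 7.87 and 7.73 in DMSO (adjusted p = 0.513 over all probe sets). Probe sets of a gene share the arrays and partly the transcript, so this is a description.

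**Figure D5:**
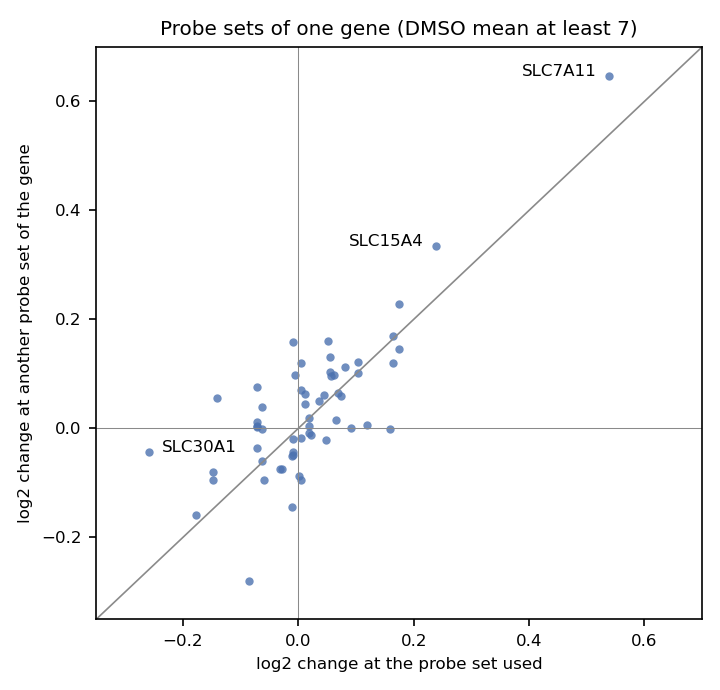
log2 change, CA minus DMSO, at the probe set used (horizontal) against the change at each other probe set of the same gene with a DMSO mean of at least 7 (vertical), for 58 probe sets of 43 expressed SLC genes; the diagonal marks equal changes. SLC7A11 has 0.54 and 0.65, SLC15A4 0.24 and 0.33, and SLC30A1 -0.26 and -0.04.

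Over the 133 genes, a principal component with 48.7% of their variance put the CA arrays at 0.59, 0.68 and 0.75 and the DMSO arrays at -0.79, -0.49 and -0.74. The next, with 28.9%, held CA replicate 3 at 0.93 and the other arrays between -0.65 and 0.38. The arrays' median difference from the DMSO mean over these genes was 0.03, 0.04 and -0.0032 in CA and 0.0019, 0.02 and -0.02 in DMSO, so CA replicate 3 lay within the DMSO range. The part of this array in the small differences above was not tested beyond leaving it out.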

How the data were processed

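Per the submitters' processing notes the authors used RMA in affy, and they deposited 1 log2 value per probe set and array; tool versions: not given in the sources used here. RMA equalises the arrays' distributions, which hides any shift common to all genes. Per the labels 2 extraction reagents were in use, without saying for which samples. Of 54613 non-control probe sets 41091 carried 1 gene symbol, and the brightest over 6 arrays stood for each of 19775 genes. The groups, from the titles, were compared in limma 3.58.1 (R 4.3.3; lmFit and eBayes without trend or block), with two-sided tests and Benjamini-Hochberg adjustment across these genes. The fit was tested on simulated data. An exact permutation of 3 against 3 samples reaches no two-sided p under 0.1.

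Substrate classes and lists came from textbook knowledge; members and lists were chosen with earlier results of these data known. Named were called genes, the 3 smallest p and the highest signal of each class, the 10 highest signals, the 3 genes on either side of the threshold and, of partners and other carriers, those called and the 3 smallest p. Further members were named for a known role, after their values were seen. Promoter windows (RefSeq, GRCh38.p14) existed for 113 of 133 members. Alternatives were each array left out, a replicate block, an intensity trend with robust fit, array weights, 2 rescalings, other probe set rules, filters on dim genes and other member thresholds.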

Additional observations from a re-analysis of the deposited data

How the results depend on the processing

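The log2 changes of SLC7A11 and SLC39A10 kept their sign in all 20 alternatives listed for the processing, from 0.46 to 0.58 and from 0.50 to 0.58. Their calls held in 13 and 14 of them. Alternatives that only redefined the members left the fit unchanged, so sign and call were fixed there in advance. Among those that changed the fit, both calls held with the trend, array weights, rescalings, probe set rules and filters on dim genes. The number of expressed SLC genes called higher was 2; it was 0 to 1 when 1 array was left out, 0 with the replicate number as a replicate block (adjusted p = 0.0716 for SLC7A11 and 0.0860 for SLC39A10 in limma), 5 under the intensity trend with robust fitting, 9 when only genes with a mean of at least 7 were tested, and 4 with a member threshold of 6. The number called lower was 0, and 1, SLC30A1, under the trend and over genes with a mean of at least 7. These counts moved with the whole table, where the main fit called 177 of 19775 genes in either direction. The trend fit called 546 of 19775. With only genes of a mean of at least 7 tested, 591 of 7865 were called, beside 9 higher and 1 lower of 131 members. With 1 array left out 1 to 112 genes were called. Testing fewer genes lightens the adjustment. For the trend the cause was not tested. A threshold of 0.1 on the adjusted p, chosen after seeing the data, left 2 members called. The median log2 change of the members was -0.0047 after a new quantile normalisation and 0.0049 to 0.036 without 1 array. The replicate block called 6 genes over the whole table in place of 177, and ended the calls of SLC22A23, SLC38A12, FLVCR2, TXNIP and ARRDC4 too (adjusted p from 0.0716 to 0.123 in limma). FLVCR2 was also not called after the new quantile normalisation (adjusted p = 0.0657). Same-numbered samples deviated together with correlations of 0.04, 0.22 and 0.25, and CA replicate 1 correlated best with DMSO replicate 2, so the numbers were not taken as pairs.

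Signs turned in some fits, and the cause was not tested. For most of these genes the change was within 0.1 of zero; SLC22A23 (0.50), SLC19A1 (0.12) and SLC2A4RG (-0.11) lay further out. Leaving out arrays gave -0.025 to 0.062 for SLC22A16, -0.040 to 0.013 for SLC38A1, -0.011 to 0.057 for SLC4A1AP, -0.015 to 0.013 for SLC25A5 and -0.11 to 0.028 for SLC35B3. Centring arrays on their medians gave 0.013 for SLC25A5 and 0.0056 for SLC38A1, and a new quantile normalisation gave -0.0025 for SLC22A16 and -0.0057 for SLC4A1AP. The mean over probe sets gave 0.0015 for SLC35B3, 0.064 for SLC38A1, 0.014 for SLC39A6 and -0.037 for SLC7A1. Without _x_at, _s_at and _a_at probe sets SLC19A1 had -0.087, SLC22A23 -0.10 and SLC2A4RG 0.038. Dim signals limit the resolution: the median SE was 0.09 for SLC genes under the threshold and 0.06 for the members.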
